A study of Mus musculus with 12 samples.

Results

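Growth hormone signalling in mouse liver was followed through 10 genes: the receptor Ghr, the signal transducer Stat5b, the secreted products Igf1 and Igfals, the feedback inhibitors Socs2 and Cish, the transcription factors Bcl6 and Cux2, and the enzymes Elovl3 and Hsd3b5. The genes were found by symbol in the count table of every library, 10 of the 22609 genes listed, and all 10 were among the 13684 genes with enough reads to be tested. RNA came from whole liver of 12 adult mice that had received no treatment, with 4 genotypes of 3 mice each. Their parents were heterozygous for an Alb/AEG-1 or an Alb/c-Myc transgene. WT mice carried neither transgene, AEG1 mice carried Alb/AEG-1, MYC mice carried Alb/c-Myc, and AEG1_MYC mice carried both. The albumin (Alb) promoter is active in hepatocytes. AEG-1 is an oncoprotein encoded by Mtdh in the mouse genome. The c-Myc protein regulates transcription and drives growth and division. The comparisons of the cross ask what each transgene changes alone and whether both together change more than the sum. The labels give no sex, age in weeks, litter, batch or hour of collection, so p values measure the spread between these mice, and replicate numbers name a mouse only.

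Growth hormone is released by the pituitary in pulses and binds its receptor on hepatocytes. The receptor activates the kinase JAK2, which phosphorylates STAT5A and STAT5B. These enter the nucleus and switch on Igf1, the main circulating mediator of body growth, and Igfals, which holds IGF1 in a long-lived complex in blood. They also switch on Socs2 and Cish, which dampen the receptor's signal. Pulses are sharp in male and nearly continuous in female mice, and many liver genes follow that pattern. Bcl6 is a repressor found at higher levels in male liver, Cux2 is a factor specific to female liver, and Elovl3 (an elongase of very long fatty acids) and Hsd3b5 (a steroid-metabolising enzyme) are male-biased.

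STAT5 binds the palindrome TTCNNNGAA, which reads the same on both strands, so the proximal promoters were searched for it. RefSeq promoters (GRCm38.p6, 250 bases before to 50 after each start) were matched for 8 of the 10 genes, with 14 start sites. Promoters for Socs2 and Elovl3 were not used here. The motif was present in 5 of the 14 windows and in 3 of the 8 genes: Igfals, Cish and Bcl6. Over all RefSeq promoters of this length, 8.3% of 32851 windows and 9.55% of 27025 genes held it. The matches are shown because these are the genes of the axis with the factor's own motif near a start. Capitals mark the motif, and the position is that of its first base relative to the start site, with the first transcribed base at 1. Starts are numbered by genome coordinate, so the first Bcl6 start, on the - strand, lies downstream of the second.
Igfals, first start, position -236 (chr17:24877603-24877621, + strand): ataatTTCTCAGAAaagag
Igfals, the second start, position -58 (chr17:24878168-24878186, + strand): aggtgTTCCTAGAAgaggc
Cish, positions 1 and 12 (chr9:107296654-107296683, + strand): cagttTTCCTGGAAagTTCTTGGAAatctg
Bcl6, first start, position -168 (chr16:23981438-23981456, - strand): gcggcTTCCTGGAAagtta
Bcl6, first start, position -122 (chr16:23981392-23981410, - strand): gagtgTTCTGTGAAatcct
Bcl6, first start, position -88 (chr16:23981358-23981376, - strand): ctacgTTCCGGGAAtgaga
Bcl6, the second start, position -118 (chr16:23988957-23988975, - strand): attagTTCTCAGAAttcca
The Cish window holds a pair of copies side by side, and the first Bcl6 window holds 3 copies. A match is a stretch of letters and not a measured binding site. Ghr, Stat5b, Igf1, Cux2 and Hsd3b5 had no match in these windows, which says nothing of sites elsewhere.

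Libraries held 21931197 to 40552316 reads in genes. Myc was 23.4 to 165 CPM (reads in a gene, scaled to the library's total in genes) in the 6 carriers of its transgene and 2.26 to 4.73 in the others. Mtdh was 89.0 to 112 CPM in all 12, so the counts do not check the AEG-1 label. A bulk library cannot tell fewer cells of a type from less RNA per cell. Hepatocyte markers, a list of 10 with none at 0, summed to 135950 to 144545 CPM in WT livers. The sum was 64641 to 103530 CPM with both transgenes, 107570 to 119062 with AEG-1 alone and 95151 to 114522 with c-Myc alone. Alb had the most reads of these markers in every liver, so the sums lean on Alb. Against WT, the median log2 fold change of the 10 markers was -0.24 for AEG1, -0.30 for MYC and -0.33 for AEG1_MYC. AEG1_MYC had 5 markers higher and 5 lower than AEG1 (median -0.05), and 6 higher and 4 lower than MYC (median 0.03). AEG1_MYC livers stood apart from one another. Replicate 1 had Saa1, an acute phase protein, at 3331 CPM against 4.30 to 44.96 in the other 11. It had 9 of 11 macrophage markers above all livers of the other genotypes, as were 19.6% of all genes. Replicate 2 had the pericentral enzyme Glul at 15863 CPM and the periportal enzyme Cyp2f2 at 2.70, and the Y-linked gene Ddx3y at 3.94 CPM against 90.8 to 158 elsewhere, while Xist was at most 0.781 in all 12. Results for AEG1_MYC are therefore given by liver as well.

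Per length, Elovl3 and Hsd3b5 were the most abundant of the 10 genes in WT liver. Using exon lengths from GENCODE M21, mean RPKM (CPM per kilobase of exon) in WT was 173 ± 57.7 (SD, n = 3) for Elovl3 and 164 ± 24.1 for Hsd3b5. Ghr followed at 99.4 ± 11.5, Igf1 at 82.1 ± 12.8 and Igfals at 40.7 ± 8.28. Stat5b was 17.0 ± 1.83 and Bcl6 6.89 ± 6.66. The feedback inhibitors were low, with Socs2 at 1.82 ± 0.500 and Cish at 1.35 ± 0.772, and Cux2 was near absent at 0.0315 ± 0.0152. Mean and SD overlap for Elovl3 and Hsd3b5, for Ghr and Igf1, and for Socs2 and Cish. Differences between genes within the same liver were not tested.

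None of the 10 genes passed edgeR's quasi-likelihood test at a Benjamini-Hochberg adjusted p under 0.05 over 13684 genes in any comparison. In AEG1 against WT the test called 0% of all genes, and in MYC against WT also 0%. It called 0.263% in AEG1_MYC against WT, 0.322% against AEG1, 0.205% against MYC, 0.0219% for the interaction and 0.519% for any difference among the 4 genotypes. At an unadjusted p under 0.05, 1 of the 10 genes passed in AEG1 against WT, 2 in MYC against WT, 1 in AEG1_MYC against WT and 2 each against AEG1, against MYC and for the interaction. The shares of all genes at that level were 3.92%, 3.47%, 17.2%, 17.4%, 15.2% and 9.25%. The comparisons share libraries, so they are not separate evidence. DESeq2 called Elovl3 in AEG1_MYC against WT and against AEG1 and no other of the 10 genes, and limma called 0. Over all genes DESeq2 called 652 and 700 in those comparisons.

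The median log2 fold change of the 10 genes was -0.37 in AEG1_MYC against WT, -0.30 against AEG1 and -0.34 against MYC. Over all genes tested the same medians were 0.01 in each. It was 0.10 in AEG1 and -0.17 in MYC against WT, with 0.00 over all genes in both. Negative fold changes were found for 7 of the 10 in AEG1_MYC against WT, against AEG1, against MYC and for the interaction, where 48.4%, 48.9%, 48.7% and 48.9% of all genes were negative. In AEG1 against WT 4 of the 10 were negative (50.3% of all genes) and in MYC against WT 8 (50.6%).

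**Figure D1:**
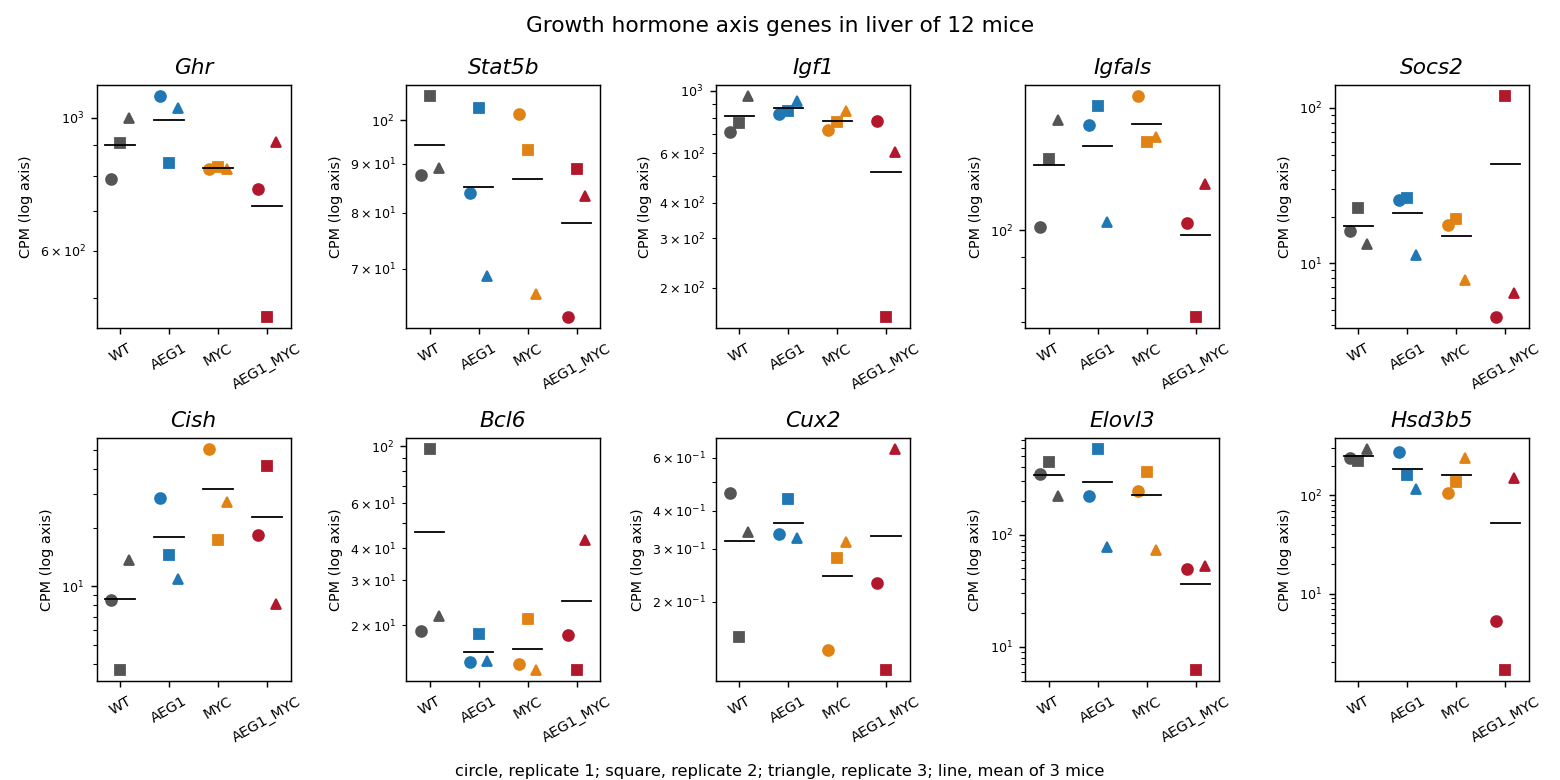
Level of each of the 10 genes (CPM, log axis) in liver of 12 mice by genotype. Each point is 1 mouse, its shape gives the replicate number, and the line is the mean of 3 mice. Elovl3 lies between 6.16 and 53.0 CPM in the 3 AEG1_MYC livers, under all others, and Socs2 reaches 119 CPM in AEG1_MYC replicate 2 alone.

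Replicate by replicate, AEG1_MYC livers were below or above all 9 livers of the other genotypes for different genes. Replicate 1 was below for 5 of the 10 (Ghr, Stat5b, Socs2, Elovl3 and Hsd3b5) and above for 0. Of all genes tested, 18.3% were below and 19.6% above in that liver. Replicate 2 was below for 6 (Ghr, Igf1, Igfals, Cux2, Elovl3 and Hsd3b5) and above for Socs2, with 28% of all genes below and 26.4% above. Replicate 3 was below for 3 (Igf1, Socs2 and Elovl3) and above for Cux2, with 10.6% below and 12.1% above. Elovl3 was the 1 gene of the 10 below in all 3, as were 2.03% of all genes, and 0 of the 10 were above in all 3, as were 3.04%.

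**Figure D2:**
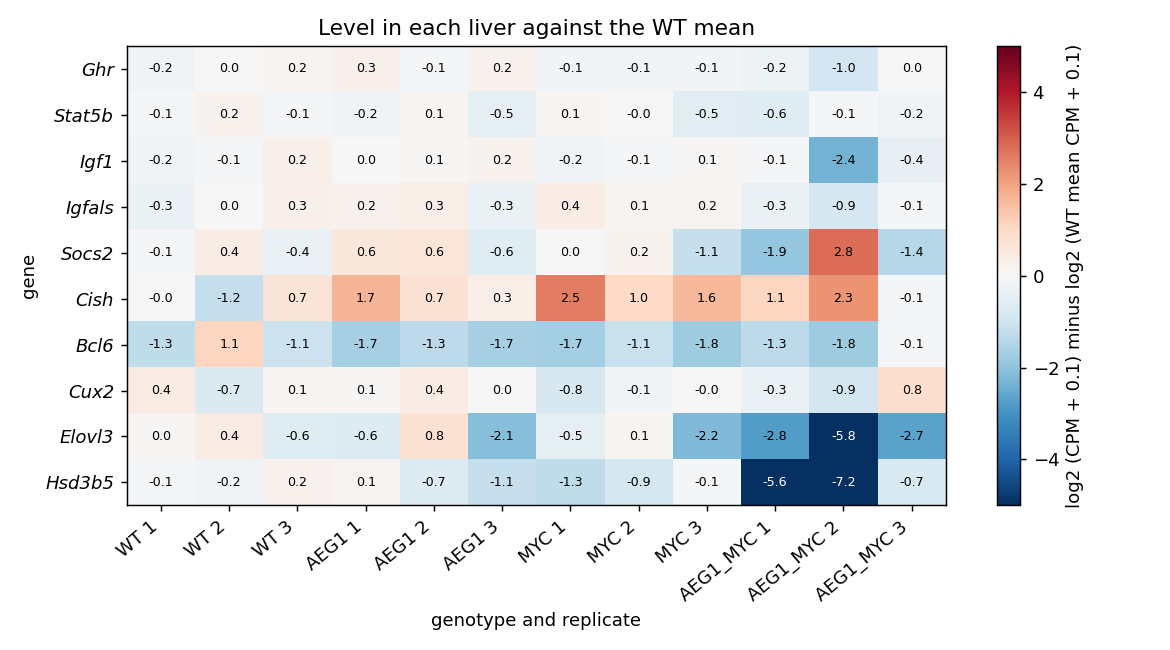
Log2 ratio of each gene's level in each liver to its WT mean, with 0.1 added to both CPM values. Columns are the 12 livers, rows the 10 genes, red is higher and blue lower, and colours stop at 5 in either direction. Elovl3 and Hsd3b5 are darkest blue in AEG1_MYC replicates 1 and 2, while Hsd3b5 in replicate 3 is near the range of the other genotypes.

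The receptor Ghr differed little between genotypes. Its level was 792, 907 and 999.9 CPM in the 3 WT livers, 1088, 842 and 1040.3 in AEG1, 822, 829 and 820.4 in MYC, and 762, 465 and 913 in AEG1_MYC. AEG1 lay above MYC with no overlap, every other pair of genotypes overlapped, and AEG1_MYC replicate 2 was at 51.7% of the WT mean. The share of all genes in which AEG1 lay above MYC was not counted. AEG1_MYC against WT gave a log2 fold change of -0.34 ± 0.22 (SE, edgeR adjusted p = 0.447), and 0.03 with replicate 3 as the one AEG1_MYC liver.

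Stat5b, the STAT5 form that carries most of the growth hormone signal in liver, ran from 62.3 to 106 CPM. WT livers had 87.7, 106 and 89.1 CPM, AEG1 83.9, 103 and 68.8, MYC 101, 93.1 and 65.9, and AEG1_MYC 62.3, 88.9 and 83.4. All 4 genotypes overlapped. Against WT the log2 fold change was -0.15 ± 0.20 in AEG1, -0.12 ± 0.20 in MYC and -0.27 ± 0.20 in AEG1_MYC. Its close relative Stat5a, whose reads can be shared with Stat5b, was 13.5 to 16.2 CPM in AEG1_MYC and 13.03 to 22.7 in WT. The kinase Jak2 was the steadiest gene described, at 28.4 to 34.9 CPM over the 12 livers, with a log2 fold change of 0.01 ± 0.10 for AEG1_MYC against WT (edgeR adjusted p = 0.981).

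Of 20 further genes of growth hormone and JAK-STAT signalling, Socs3 was the 1 that passed the test. Socs3 is an inhibitor of cytokine receptors that is induced by the interleukin 6 and STAT3 pathway as well as by growth hormone. It had 22.6, 28.4 and 10.9 CPM in the AEG1_MYC livers, 9.39, 7.27 and 7.43 in WT, 5.86, 6.41 and 5.57 in AEG1, and 9.81, 7.52 and 6.67 in MYC. All 3 AEG1_MYC livers were above the other 9, as for 3.04% of all genes, and replicate 3 was the nearest to them. Socs3 was 3.47-fold higher in AEG1_MYC than in AEG1 (log2 fold change 1.80 ± 0.30, edgeR adjusted p = 0.0409) and passed the test of any difference (adjusted p = 0.0499).
Against WT the log2 fold change was 1.36 ± 0.29 (adjusted p = 0.0944) and against MYC 1.37 ± 0.29 (adjusted p = 0.113). The call against AEG1 was lost when any 1 library other than AEG1_MYC replicate 3 was left out, with adjusted p of 0.0569 to 0.228. Acute phase and macrophage genes were also high in replicate 1, but not in replicate 2. There 14 of 18 acute phase genes were below all 9 livers of the other genotypes, as were 28% of all genes. Their part in the Socs3 result was not tested.

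The receptors of related hormones differed in opposite directions in AEG1_MYC without passing the test. Prlr, the prolactin receptor, had 64.4, 13.5 and 73.1 CPM in AEG1_MYC and 82.3 to 191 in the other 9 livers, a log2 fold change of -1.43 ± 0.51 against WT (edgeR adjusted p = 0.199). Lepr, the leptin receptor, had 11.4, 24.1 and 10.7 CPM against 2.09 to 10.4 elsewhere. Both sets of 3 lay outside the other 9, although WT replicate 1 had 10.4 CPM of Lepr, close to the lowest AEG1_MYC liver. Of the 20 genes, Jak1 and Prlr were below the other 9 in all 3 AEG1_MYC livers, as were 2.03% of all genes. Lepr and Socs3 were above in all 3, as were 3.04%. The Lepr log2 fold change was 1.83 ± 0.54 against MYC (adjusted p = 0.206) and 1.47 ± 0.54 against WT (adjusted p = 0.205). The median over the 20 genes was -0.14 in AEG1_MYC against WT, and 9 were positive and 11 negative. There edgeR called none in either direction, limma called 0, and DESeq2 called Socs3 alone, out of 652 over all genes. An unadjusted edgeR p under 0.05 was found for 6 of the 20, and for 17.2% of all genes.

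Igf1 was low in 1 liver. Its level was 715, 768 and 957 CPM in WT, 829, 849 and 918 in AEG1, 723, 772 and 849 in MYC, and 779, 157 and 606 in AEG1_MYC. Replicate 2 of AEG1_MYC was at 19.3% of the WT mean and replicate 3 at 74.5%, both below the other genotypes, while replicate 1 lay among them. Against WT it differed by a log2 fold change of -0.66 ± 0.42 (edgeR adjusted p = 0.436), and -0.23 without replicate 2. AEG1_MYC lay below AEG1 with no overlap, as did 8.24% of all genes, and the test gave -0.75 ± 0.42 (adjusted p = 0.380).

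Igfals, the acid-labile subunit of the circulating IGF1 complex, had 101, 132 and 153 CPM in WT, 151, 162 and 103 in AEG1, 168, 141 and 143 in MYC, and 103, 71.2 and 119.5 in AEG1_MYC. AEG1_MYC lay below MYC with no overlap, as did 8.85% of all genes, and overlapped WT and AEG1. The log2 fold change was -0.62 ± 0.23 against MYC (edgeR adjusted p = 0.248) and -0.40 ± 0.23 against WT (adjusted p = 0.385). The interaction was -0.73 ± 0.32 with an unadjusted p of 0.0432 and an adjusted p of 0.526.

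Of the 14 further genes of the IGF system, 11 were tested and none was called in any of the 7 tests by edgeR, DESeq2 or limma. In AEG1_MYC against WT 1 of the 11 had an unadjusted p under 0.05, as did 17.2% of all genes. Igf2r, which takes up IGF2 and lysosomal enzymes, had 95.6, 141 and 107 CPM in AEG1_MYC and 78.6 to 91.7 in the other 9 livers. It was above all 9 in each AEG1_MYC liver, as were 3.04% of all genes. Its log2 fold change against WT was 0.43 ± 0.13 (edgeR adjusted p = 0.168). The fetal growth factor Igf2 was at 0.385 to 1.07 CPM throughout, and the receptor Igf1r at 2.71 to 5.20. Igfbp1, a binding protein that is released in fasting, spread from 13.3 to 95.7 CPM within WT and from 27.8 to 178 within AEG1_MYC. Igfbp2 was 570.1, 326 and 249 CPM in WT and 245, 213 and 139 in AEG1, a log2 fold change of -0.94 ± 0.39 (unadjusted p = 0.0337, adjusted p = 0.9997).

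Socs2, an inhibitor of the growth hormone receptor, split the AEG1_MYC livers in both directions. Its level was 4.49, 119 and 6.48 CPM in AEG1_MYC, against 16.3, 22.6 and 13.2 in WT, 25.7, 26.4 and 11.2 in AEG1 and 17.8, 19.4 and 7.83 in MYC. Replicate 2 was above and replicates 1 and 3 below every liver of the other genotypes, at 687%, 25.9% and 37.3% of the WT mean. The log2 fold change against WT was therefore 1.32 ± 0.9995 with all 3 livers (edgeR adjusted p = 0.515) and -1.66 without replicate 2 (adjusted p = 0.270). The liver with the highest Socs2 was the one with the lowest Ghr, Igf1, Igfals, Elovl3 and Hsd3b5 of the 12. That liver also stood apart in its zonal markers and Y-linked genes, whose part in these values was not tested.

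Cish, another STAT5-induced inhibitor, was higher in carriers of either transgene on average. WT livers had 8.57, 3.71 and 13.6 CPM, AEG1 28.5, 14.5 and 10.9, MYC 50.8, 17.3 and 27.0, and AEG1_MYC 18.4, 41.6 and 8.12. MYC lay above WT with no overlap, as did 5.47% of all genes, while AEG1 and AEG1_MYC overlapped WT. MYC against WT gave a log2 fold change of 1.88 ± 0.67, an unadjusted p of 0.0178 and an edgeR adjusted p of 0.999. In AEG1_MYC against WT it was 1.40 ± 0.66 (adjusted p = 0.309), and -0.08 with replicate 3 as the one AEG1_MYC liver. GENCODE M21 places 2 transcripts on the opposite strand over 4.07% and 7.46% of the Cish exon bases. The strand setting of the counting is not given, so their reads cannot be told apart from those of Cish.

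Bcl6 represses many STAT5 targets, and STAT5 in turn lowers it. It had 19.1, 97.7 and 21.8 CPM in WT, 14.4, 18.5 and 14.5 in AEG1, 14.1, 21.2 and 13.4 in MYC, and 18.4, 13.4 and 43.3 in AEG1_MYC. WT replicate 2 stood far above the other WT livers, and AEG1 lay below WT with no overlap, as did 5.53% of all genes. The log2 fold changes against WT were -1.55 ± 0.62 in AEG1 and -1.51 ± 0.62 in MYC (unadjusted p = 0.0303 and 0.0335, edgeR adjusted p = 0.9997 and 0.999). Without WT replicate 2 they were -0.38 and -0.33. The interaction was 2.17 ± 0.87 (adjusted p = 0.497) and 1.01 without that liver.

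Cux2 was at the limit of detection. It had 4 to 20 reads per library, or 0.458, 0.153 and 0.342 CPM in WT, 0.335, 0.437 and 0.326 in AEG1, 0.138, 0.279 and 0.316 in MYC, and 0.231, 0.119 and 0.642 in AEG1_MYC. AEG1 lay just above MYC, a pair for which the share of all genes was not counted, and every other pair of genotypes overlapped. The log2 fold change against WT was 0.03 ± 0.61 in AEG1_MYC. A difference of about the size of this error was not detectable at this depth, and a difference of several times the error could be missed too. The liver with few Y-linked reads, AEG1_MYC replicate 2, had 4 Cux2 reads, as had WT replicate 2 and MYC replicate 1.

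Onecut1 (HNF6), a liver factor that growth hormone induces, had the clearest pattern among 13 further transcription factors tied to growth hormone. It was 18.2, 10.4 and 11.4 CPM in WT, 84.8, 29.9 and 23.2 in AEG1, 69.0, 35.4 and 45.4 in MYC, and 13.9, 9.51 and 9.15 in AEG1_MYC. Both single transgenics lay above WT and above AEG1_MYC with no overlap, and AEG1_MYC overlapped WT. Of all genes, 5.47% were higher in MYC than in WT with no overlap, and that share for AEG1 is not reported here. In AEG1_MYC 8.24% of all genes were below AEG1 and 8.85% below MYC with no overlap. The Onecut1 interaction was -3.98 ± 0.67 on the log2 scale, with an unadjusted p of 0.000116 and an edgeR adjusted p of 0.120. DESeq2 gave an adjusted p of 6.8e-07 for it, and the estimate stayed between -4.31 and -3.19 when each library was left out in turn.
The single differences from WT were 1.78 ± 0.47 in AEG1 (adjusted p = 0.9997) and 1.90 ± 0.47 in MYC (adjusted p = 0.880). AEG1_MYC was -2.08 ± 0.48 against AEG1 (adjusted p = 0.0976) and -2.20 ± 0.48 against MYC (adjusted p = 0.114). None of the 13 genes passed edgeR's test in any of the 7 tests. For the interaction 6 of the 13 had an unadjusted p under 0.05 (9.25% of all genes did), and DESeq2 called 1, out of 152 over all genes. Onecut1 and this list were chosen with results of these libraries known, so the pattern is a description.

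Tox and Trim24 are further transcription regulators whose liver level depends on growth hormone and sex. Tox had 11.1, 25.1 and 5.39 CPM in AEG1_MYC and 1.41 to 2.38 in WT, but AEG1 replicate 3 reached 9.84. Its log2 fold change against WT was 2.82 ± 0.63 (edgeR adjusted p = 0.1001). Trim24 was 77.9, 57.4 and 40.6 CPM in AEG1_MYC and 25.8 to 37.2 in WT, with a log2 fold change of 0.84 ± 0.29 (adjusted p = 0.189). Foxa2, a pioneer factor for liver genes, was 35.02 to 71.9 CPM in MYC and 26.3 to 30.7 in WT. MYC lay above WT with no overlap, as did 5.47% of all genes, and the log2 fold change was 0.79 ± 0.30 (adjusted p = 0.999).

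Elovl3 had the largest difference of the 10 genes in AEG1_MYC against WT. It was 352, 449.6 and 223 CPM in WT, 221, 583 and 78.3 in AEG1, 243, 361 and 73.2 in MYC, and 49.7, 6.16 and 53.0 in AEG1_MYC. The 3 AEG1_MYC livers were at 14.6%, 1.81% and 15.5% of the WT mean and below every other liver, the nearest being MYC replicate 3 and AEG1 replicate 3. The log2 fold change was -3.23 ± 0.92 against WT (edgeR adjusted p = 0.150), -3.02 ± 0.91 against AEG1 (adjusted p = 0.155) and -2.64 ± 0.90 against MYC (adjusted p = 0.234). AEG1_MYC lay below with no overlap in each of the 3 comparisons, as did 9.65%, 8.24% and 8.85% of all genes.
With DESeq2 the adjusted p was 0.0151 against WT, 0.0243 against AEG1 and 0.0759 against MYC. The estimate against WT was between -3.61 and -2.73 when each library was left out in turn, and -2.73 (adjusted p = 0.323) without AEG1_MYC replicate 2. The interaction was -2.42 ± 1.21 (adjusted p = 0.575).

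Hsd3b5 was very low in 2 of the 3 AEG1_MYC livers. It had 240.2, 226 and 297 CPM in WT, 277, 161 and 115 in AEG1, 106, 138 and 239 in MYC, and 5.32, 1.66 and 152 in AEG1_MYC. Replicates 1 and 2 were at 2.09% and 0.652% of the WT mean and replicate 3 at 59.6%, within the range of AEG1 and MYC. AEG1_MYC lay below WT with no overlap, as did 9.65% of all genes, but overlapped AEG1 and MYC. For Hsd3b5 the log2 fold change against WT was -2.27 ± 1.20 (edgeR adjusted p = 0.352), and -0.74 with replicate 3 as the one AEG1_MYC liver. Without replicate 3 it was -6.19 (edgeR adjusted p = 0.00347), and 687 genes were called in place of 36. Leaving out the AEG1_MYC liver nearest WT enlarges the difference by itself. Hsd3b5 has near-identical relatives in the Hsd3b family, so reads shared between them make its level uncertain.

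Male-biased liver genes leaned the same way in the same livers, and less far in MYC livers. Of 17 tested genes of the list, which does not hold the 10 genes above, 16 had a negative fold change in AEG1_MYC against WT, with a median of -0.62 against 0.01 over all genes. None was called by edgeR, DESeq2 or limma, and 1 had an unadjusted p under 0.05, as did 17.2% of all genes. In MYC against WT 15 of the 17 were negative, with a median of -0.24 against -0.003 over all genes. In AEG1 against WT 10 were negative, with a median of -0.02 against -0.002. In AEG1_MYC replicate 1, 7 of the 17 were below all 9 livers of the other genotypes, in replicate 2, 11 were, and in replicate 3, 0. The shares of all genes below were 18.3%, 28% and 10.6%. The transporter Slco1a1 had 115, 16.4 and 684 CPM in AEG1_MYC and 919.7, 792 and 1088 in WT, a log2 fold change of -1.78 ± 0.91 (adjusted p = 0.339). It was -3.82 (adjusted p = 0.0256) without replicate 3, the AEG1_MYC liver nearest WT. In AEG1 and MYC livers Slco1a1 was 363 to 834 CPM, below every WT liver except that AEG1 replicate 2 exceeded WT replicate 2.
The protease inhibitor Serpina1e was 301, 22.5 and 247 CPM in AEG1_MYC, while its WT values of 1344, 276 and 910.1 overlapped them, with a log2 fold change of -2.15 ± 0.85 (adjusted p = 0.236). The complement gene C6 gave -0.40 ± 0.21 (adjusted p = 0.342). The Mup, Cyp4a and Serpina1 genes of the list have near-identical copies and are uncertain.

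Female-biased genes leaned upward in AEG1_MYC and in AEG1 replicates 2 and 3. In AEG1_MYC against WT 14 of 17 had a positive fold change, with a median of 0.56 against 0.01 over all genes. None passed edgeR's test, 4 had an unadjusted p under 0.05 (17.2% of all genes did), and DESeq2 called 2, out of 652 over all genes. In AEG1 against WT 12 of the 17 were positive with a median of 0.53, and in MYC against WT 8 with -0.16. The WT livers themselves had list medians of -0.90, -0.07 and 0.17 on the log2 scale relative to the WT mean. The AEG1 livers had -0.28, 0.37 and 0.35 on the same scale. Fmo2, a flavin monooxygenase, had 45.6, 71.5 and 9.21 CPM in AEG1_MYC and 9.12, 12.8 and 9.99 in WT. Replicates 1 and 2 were above all other livers and replicate 3 was within WT, and the log2 fold change was 1.98 ± 0.58 (edgeR adjusted p = 0.160). Cyp2a4, a steroid hydroxylase, showed the same split with 18.6, 22.4 and 3.56 CPM against 0.574 to 3.76 in WT (3.19 ± 1.14, adjusted p = 0.202). Hao2, a hydroxy acid oxidase, had 4.23, 14.4 and 7.51 CPM against 0.397 to 3.97 (2.08 ± 0.66, adjusted p = 0.176).
In single transgenics, Cyp2b13 was 15.6, 8.03 and 33.6 CPM in MYC and 0.345 to 6.83 in WT. MYC lay above WT with no overlap, as did 5.47% of all genes, and the log2 fold change was 2.90 ± 1.25 (edgeR adjusted p = 0.999). Sult1e1 in MYC rested on 1 liver, at 7.78 CPM against 0.587 and 0.764 in the other two.

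**Figure D3:**
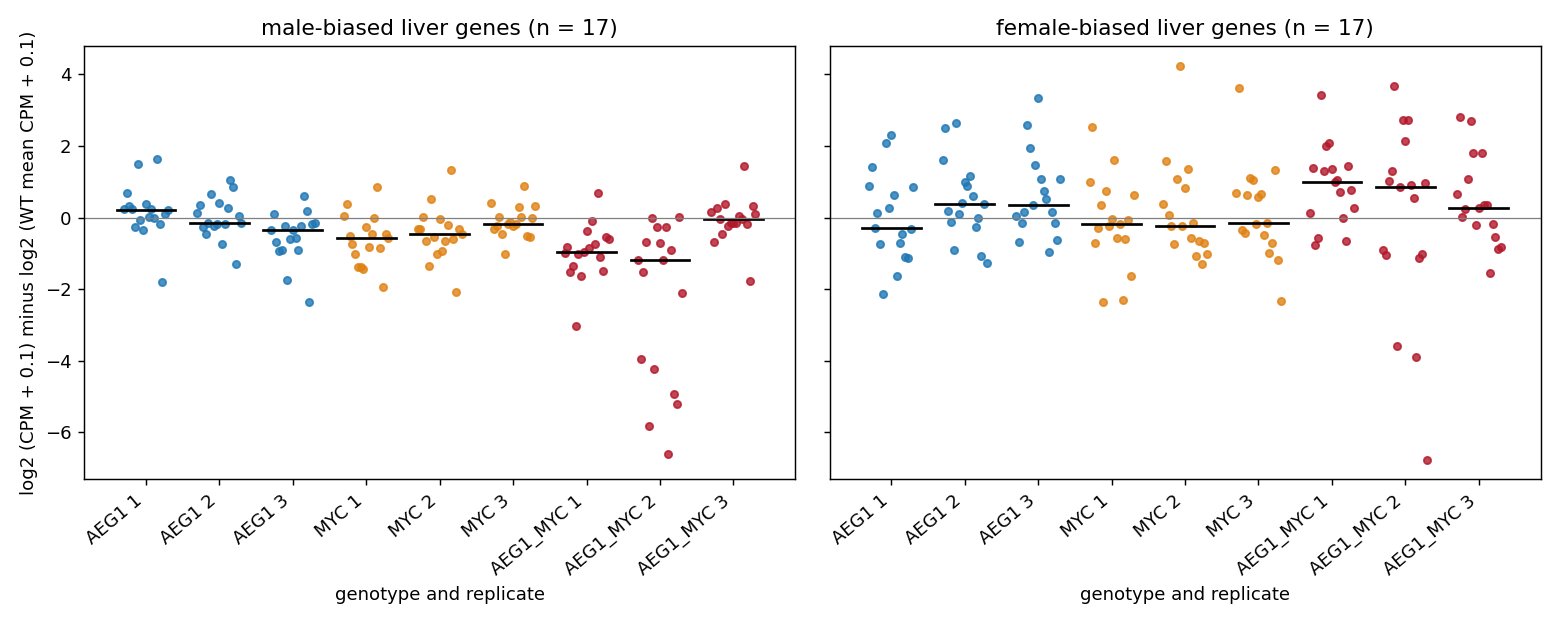
Log2 ratio to the WT mean (0.1 added to both CPM values) of 17 male-biased and 17 female-biased genes in each AEG1, MYC and AEG1_MYC liver. Each point is 1 gene and the line is the median. Male-biased medians are -0.95 and -1.19 in AEG1_MYC replicates 1 and 2 and -0.05 in replicate 3, and female-biased medians are 0.99, 0.86 and 0.26.

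Loss of growth hormone signalling in hepatocytes is known to raise genes of fat uptake and storage, and 10 such genes were examined. In AEG1_MYC against WT 9 had a positive fold change with a median of 1.58, against 0.01 over all genes. By liver, the median log2 ratio of the list to the WT mean was 1.34, 1.81 and 0.11 in replicates 1, 2 and 3. None of the 10 genes passed edgeR's test, 7 had an unadjusted p under 0.05 (17.2% of all genes did), and DESeq2 called 3. Over all genes DESeq2 called 652 there. In AEG1 and in MYC against WT 7 of the 10 were positive, with medians of 0.50 and 0.47. Plin4, a lipid droplet coat protein, had 59.5, 52.5 and 2.50 CPM in AEG1_MYC and 1.88 to 5.61 in WT. Replicates 1 and 2 were above all other livers and replicate 3 within WT. Its log2 fold change was 3.45 ± 0.89 (edgeR adjusted p = 0.128), and -0.48 with replicate 3 as the one AEG1_MYC liver. It was 4.01 (edgeR adjusted p = 0.00343) without replicate 3, the AEG1_MYC liver nearest WT.
Vldlr, the very low density lipoprotein receptor, was 8.09, 20.7 and 6.45 CPM, above the 1.95 to 5.55 of all other livers (1.60 ± 0.47, adjusted p = 0.160). All 3 AEG1_MYC livers were above the other 9 for 3.04% of all genes. Lpl, the lipoprotein lipase, was 16.9, 244 and 49.4 CPM against 8.71 to 31.6 in WT (2.42 ± 0.79, adjusted p = 0.183). The fatty acid transporter Cd36 was 210.1, 217 and 326 CPM in AEG1 and 76.6, 218 and 81.8 in WT, and WT replicate 2 overlapped AEG1 (log2 fold change 1.001 ± 0.42, adjusted p = 0.9997).

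Stat5b followed a clock gene across the mice. Arntl (Bmal1), a core clock activator whose transcript cycles over the day, spread from 1.91 to 54.5 CPM, and the labels do not give the hour of collection. It was 21.4, 35.8 and 11.1 CPM in WT, 26.5, 54.5 and 1.91 in AEG1, 48.7, 49.7 and 4.27 in MYC, and 2.78, 8.24 and 2.09 in AEG1_MYC. AEG1_MYC livers were thus all low, with AEG1 replicate 3 and MYC replicate 3 beside them. Dbp, a clock output gene of opposite phase, was 87.6 to 142 CPM in replicate 3 of every genotype, a number that pairs no mice. In reads those livers had 2051 to 4588, AEG1_MYC replicates 1 and 2 had 1496 and 2191, and WT replicate 1 had 856. The remaining livers had 20 to 542 reads of Dbp.
Over 12 livers, Stat5b and Arntl gave a Pearson r of 0.82 on log2 CPM (permutation p = 0.00114, adjusted p = 0.0220) and a Spearman rho of 0.83 (permutation p = 0.00128, adjusted p = 0.0499). In all 135 relations were tested this way, with Benjamini-Hochberg adjustment. Livers were permuted without regard to genotype, so these p values do not account for differences between genotypes. Without the 2 livers of most extreme Stat5b, r was 0.81, and within genotypes 0.84. In the 9 livers that did not carry both transgenes, r was 0.90 and rho 0.80 (exact permutation p = 0.00245 and 0.0138, adjusted p = 0.0890 and 0.311), and r was 0.63 without MYC replicate 3 and AEG1 replicate 3.

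Elovl3 and Arntl gave r = 0.69 and rho = 0.82 over 12 livers (permutation p = 0.0104 and 0.00202, adjusted p = 0.0552 and 0.0545), which did not pass. AEG1_MYC replicate 2 lay far off the relation, with Arntl at 8.24 and Elovl3 at 6.16 CPM. Without it and AEG1_MYC replicate 1, r was 0.93, and in the 9 other livers r was 0.90 (exact permutation p = 0.00264, adjusted p = 0.0890). It was 0.55 there without MYC replicate 3 and AEG1 replicate 3. Socs2 and Arntl gave r = 0.50 over 12 livers (permutation p = 0.0922, adjusted p = 0.230), 0.88 without the same 2 livers and 0.83 in the 9 (exact permutation p = 0.00569, adjusted p = 0.110), or 0.65 without those 2 replicates. Adding log2 CPM of Arntl to the model, an alternative chosen after seeing the data, changed the Elovl3 log2 fold change of AEG1_MYC against WT from -3.23 to -1.79 (edgeR adjusted p = 0.413) and that of Hsd3b5 from -2.27 to -2.99. Arntl was low in all 3 AEG1_MYC livers, so that model separates the clock gene from the genotype only in part.

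**Figure D4:**
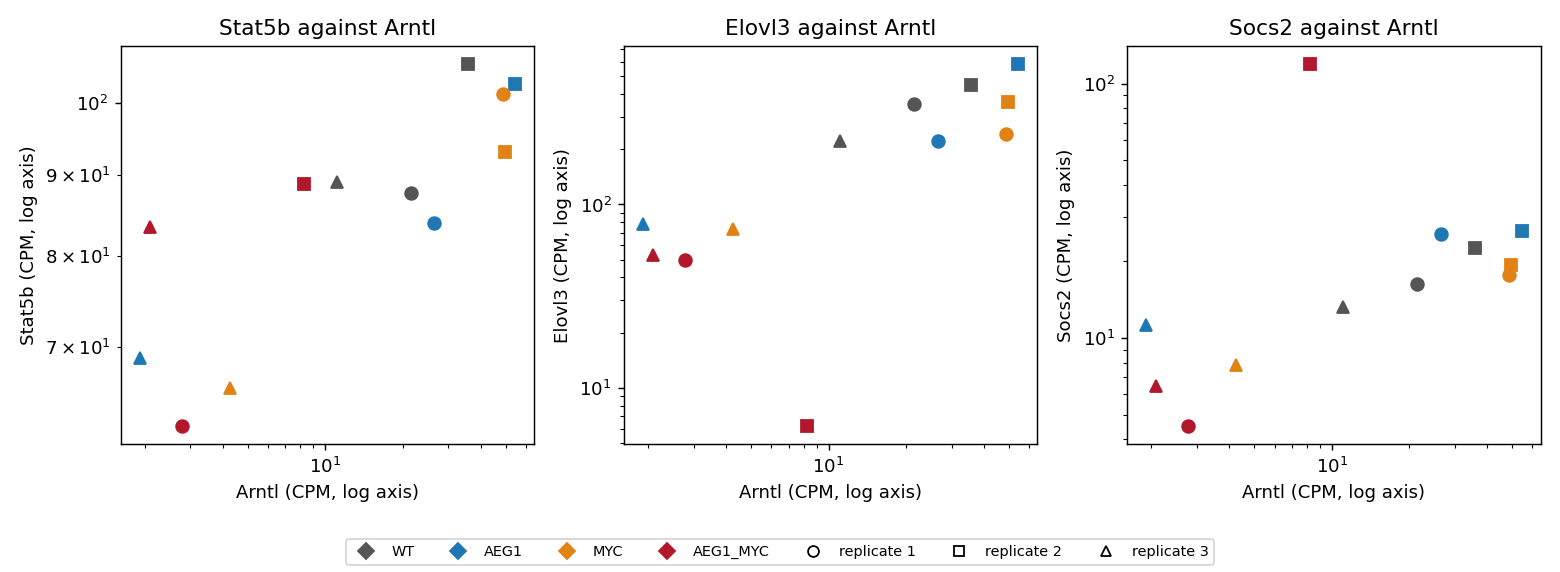
Stat5b, Elovl3 and Socs2 against the clock gene Arntl (CPM, both axes log) in 12 livers. Colour gives the genotype and shape the replicate number. The 4 livers with Arntl under 5 CPM hold low Elovl3, from 49.7 to 78.3 CPM, and AEG1_MYC replicate 2 stands alone with low Elovl3 and high Socs2.

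Cish and Bcl6 went opposite ways from liver to liver. The liver with the most Bcl6, WT replicate 2 at 97.7 CPM, had the least Cish, at 3.71 CPM. AEG1_MYC replicate 3 had the next most Bcl6, 43.3 CPM, and the next least Cish, 8.12 CPM. Over 12 livers r was -0.81 (permutation p = 0.000340, adjusted p = 0.0128) and rho -0.83 (permutation p = 0.00136, adjusted p = 0.0499). Without the 2 livers of most extreme Cish, r was -0.68 (permutation p = 0.0223), and within genotypes -0.79. In the 9 livers without both transgenes r was -0.79 (exact permutation p = 0.00719, adjusted p = 0.121), and -0.49 without 2 of them. Both genes carry the STAT5 motif copies printed above, as does Igfals, and a part of STAT5 in this relation was not tested.

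Igfals followed the zonal markers. With Cyp2f2, a periportal enzyme, r was 0.81 and rho 0.83 over 12 livers (permutation p = 3.0e-05 and 0.00148, adjusted p = 0.00405 and 0.0499). Without the 2 livers of most extreme Igfals, r was 0.82, and in the 9 livers without both transgenes it was 0.84 (exact permutation p = 0.0116, adjusted p = 0.142) but 0.07 without 2 of those 9, so there it rests on them. Glul separates the AEG1_MYC livers (3064, 15863 and 3070.5 CPM) from the other 9 (493 to 1427 CPM), so no pooled value is given. In the 9, Igfals and Glul gave r = -0.82 and rho = -0.77 (exact permutation p = 0.00551 and 0.0214, adjusted p = 0.110 and 0.350), and r = -0.57 without 2 of them.
Pericentral markers were above all 9 other livers for 10, 15 and 12 of 15 genes in AEG1_MYC replicates 1, 2 and 3. Of all genes, 19.6%, 26.4% and 12.1% were above. The pericentral markers summed to 14989 to 37750 CPM there against 9070 to 12721 in WT, 7903 to 10437 in AEG1 and 6337 to 8673 in MYC. Periportal markers were below for 3, 11 and 1 of 12, as were 18.3%, 28% and 10.6% of all genes. They summed to 25021 to 66024 CPM against 93667 to 101448 in WT, 73470 to 80864 in AEG1 and 62791 to 78138 in MYC. The periportal list holds Alb, which makes up most of its sum in every liver, so these sums mainly follow Alb. The median log2 ratio of the 12 markers to the WT mean was -0.04, -3.82 and -0.17 in AEG1_MYC replicates 1, 2 and 3. None of these markers was at 0 in all livers, and their part in the Igf1, Igfals, Elovl3 and Hsd3b5 values was not tested.

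**Figure D5:**
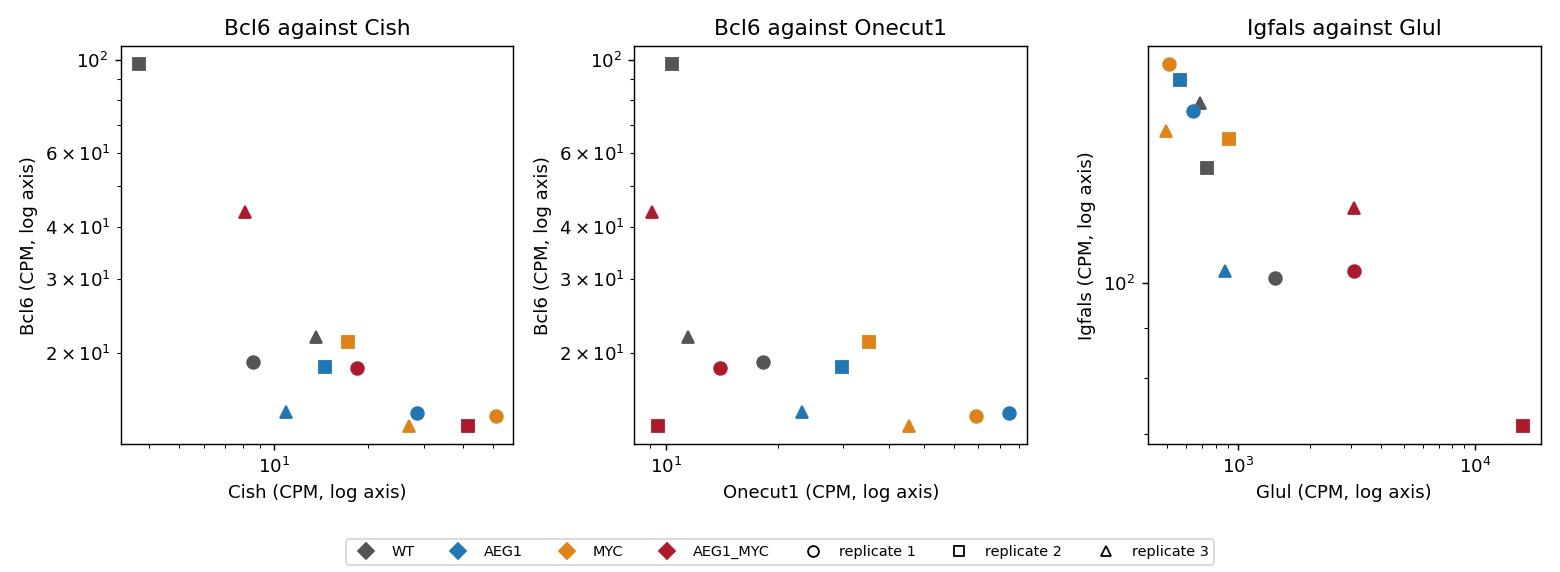
Bcl6 against Cish, Bcl6 against Onecut1 and Igfals against Glul (CPM, all axes log) in 12 livers, with colour for genotype and shape for replicate number. WT replicate 2 holds the most Bcl6 and least Cish, Onecut1 splits single transgenics from the other livers, and AEG1_MYC replicate 2 has the highest Glul and lowest Igfals.

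Relations among the growth hormone genes themselves changed when 2 livers were left out. Ghr and Igf1 gave r = 0.88 (permutation p = 0.00839, adjusted p = 0.0492) but rho = 0.52, and r was 0.42 without the 2 livers of most extreme Ghr. Elovl3 and Hsd3b5 gave r = 0.78 over 12 livers and 0.15 without 2, so that relation rests on them. Socs2 and Elovl3 gave r = -0.16 over 12 livers (permutation p = 0.596) and 0.90 without AEG1_MYC replicates 1 and 2.

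The genes most like each of the 10 across the 12 livers were taken as the 3 of highest Pearson r on log2 CPM among 12080 genes with a mean of at least 1 CPM. For Elovl3 they were Atf5 (r = 0.98), Slc30a10 (r = 0.97) and Pitx3 (r = 0.97), and the values were 0.93, 0.93 and 0.98 without AEG1_MYC replicates 1 and 2. Pitx3 had 0 to 6.75 CPM. Its exons share 10 bases with those of Elovl3 on the opposite strand, so reads at that end cannot be told apart. Stat5b was most like Stard13, Spon2 and Dtx4 (r = 0.94, 0.93 and 0.91, and 0.94, 0.92 and 0.89 over the 10 livers).
For Hsd3b5, Cyp8b1 had r = 0.97 over 12 livers and 0.44 over 10, Amdhd1 had 0.97 and 0.31, and 2810007J24Rik had 0.97 and 0.80. For Ghr the closest was Dcaf12l1 (0.96 and 0.80) and for Igf1 Fam188a (0.99 and 0.81). Bcl6 was most like Egf (0.83 and 0.86), and Gpd1, also among its 3, had 0.80 and 0.93. For Cish the closest was Taf4a (0.86 and 0.83), for Socs2 Alg14 (0.94 and 0.87), for Igfals Synrg (0.95 and 0.86) and for Cux2 Pnp2 (0.89 and 0.85). The median r with all genes was between -0.02 and 0.04 for each of the 10.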

How the data were processed

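Read counts per gene were deposited by the authors as 1 table of raw counts per library. Per the submitters' processing notes, CASAVA 1.8.2, TopHat2 2.0.7, HTSeq and the build mm9 were used. The HTSeq version, annotation and strand setting are not given in the sources used here. Summary lines (5 per table) stayed out. Counts were fitted in R 4.3.3 with edgeR 4.0.16: TMM scaling, filterByExpr, 1 coefficient per genotype over all 12 libraries, and two-sided robust quasi-likelihood F tests, adjusted over 13684 genes by Benjamini-Hochberg. An SE is the size of the log2 fold change over the square root of F, with a median of 0.208 for 3 against 3. The interaction is the effect of AEG1 in MYC carriers less its effect in other mice. The fit was tested on simulated data. DESeq2 1.42.0 and limma 3.58.1 were alternatives.

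CPM uses TMM-scaled totals, and log2 CPM a prior count of 2. RPKM uses GENCODE M21 exon lengths (GRCm38), so it is approximate for mm9 counts. Correlation p values come from 100000 permutations, or all orders for 9 livers, without regard to genotype. The 10 genes and the lists were chosen with earlier results of these data known. From each list of growth hormone related genes, up to 4 called genes of lowest p per comparison could be named, or up to 3 of lowest unadjusted p where none was called. Jak2, Stat5a, Socs3, Onecut1, Igfbp1, Igfbp2, Igf1r, Igf2 and a few marker genes were set by name. Some genes of the lists are not reported here.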

Additional observations from a re-analysis of the deposited data

How the results depend on the processing

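No paired analysis was possible because the labels give the genotypes no shared replicate numbers. Numbers of genes called moved more than 1.5 times with DESeq2, to 15 in AEG1 against WT, 28 in MYC against WT, 652 in AEG1_MYC against WT, 700 against AEG1, 446 against MYC, 152 for the interaction and 738 for any difference, where edgeR called 0, 0, 36, 44, 28, 3 and 71. With limma and library weights they were 23 in AEG1_MYC against WT, 5 for the interaction and 29 for any difference. The 6 compared libraries alone gave 2, 2 and 7 in AEG1_MYC against WT, AEG1 and MYC. Replicate 3 as the one AEG1_MYC liver gave 4, 7 and 3, with 1 for the interaction and 5 for any difference. With Arntl as a covariate they were 11, 23 and 7, with 1 and 7. Without the robust step the interaction had 5. Leaving out each library gave 0 to 1 for MYC against WT, 6 to 687, 4 to 630 and 6 to 450 in AEG1_MYC against WT, AEG1 and MYC, 1 to 32 for the interaction and 23 to 292 for any difference. Each highest value of the last 5 came without AEG1_MYC replicate 3. The cause was not tested.

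Of 1322 alternative values of the 10 genes' fold changes, 62 had the opposite sign and 6 were called. The 6 were Elovl3 with DESeq2 against WT and AEG1, and Hsd3b5 without AEG1_MYC replicate 3 against WT, AEG1, MYC and in the interaction. Of 820 values of other named genes, 10 had the opposite sign, and 0 of all reversed values had an adjusted p under 0.05. DESeq2 brought Socs3, Tox, Fmo2, Hao2, Plin4, Vldlr, Lpl, Onecut1 and Lepr past the threshold in comparisons where edgeR did not. A filter of 1 CPM in 3 libraries removed Cux2. Log2 fold changes that turned sign follow. With replicate 3 as the one AEG1_MYC liver, signs turned for Cish -0.084, Fmo2 -0.20, Ghr 0.025, Igfbp2 0.065, Plin4 -0.48 and Socs2 -1.41 in AEG1_MYC against WT. They turned for Cish -1.14, Cux2 0.83 and Socs2 -1.69 in AEG1_MYC against AEG1. They turned for Ghr 0.15 and Socs2 -1.20 in AEG1_MYC against MYC. In the interaction they turned for Ghr 0.015, Hsd3b5 0.39, Socs2 -1.49 and Stat5b 0.092. With limma and library weights, signs turned for Socs2 -0.91 in AEG1_MYC against WT. They turned for Cish -0.42 and Socs2 -1.40 in AEG1_MYC against AEG1. They turned for Socs2 -0.83 in AEG1_MYC against MYC. They turned for Elovl3 0.014 in AEG1 against WT, and for Socs2 -1.33 in the interaction. With Arntl as a covariate, signs turned for Cux2 -0.31, Jak2 -0.035, Onecut1 0.014, Stat5a 3.4e-04 and Stat5b 0.048 in AEG1_MYC against WT. They turned for Stat5b 0.14 in AEG1_MYC against AEG1. They turned for Stat5b 0.20 in AEG1_MYC against MYC. They turned for Cux2 -0.046 and Stat5b 0.29 in the interaction. With upper-quartile scaling, signs turned for Stat5b 0.0060 in the interaction. Leaving out 1 library at a time turned some signs. In AEG1_MYC against WT they ran over Bcl6 -1.52 to 0.29, Cux2 -0.87 to 0.44, Jak2 -0.038 to 0.078, Onecut1 -0.51 to 0.010 and Socs2 -1.66 to 1.88. In AEG1_MYC against AEG1 they ran over Cish -0.44 to 0.84, Cux2 -1.03 to 0.28, Socs2 -1.94 to 1.60 and Stat5b -0.25 to 0.045. In AEG1_MYC against MYC they were Bcl6 -0.029 to 0.93, Cish -1.25 to 0.049, Cux2 -0.50 to 0.81, Ghr -0.42 to 0.023 and Socs2 -1.45 to 2.08. AEG1 against WT gave Cux2 -0.17 to 0.56, Elovl3 -1.19 to 0.24 and Igfals -0.035 to 0.29. MYC against WT gave Cux2 -0.70 to 0.026, Igf1 -0.13 to 0.082, Socs2 -0.43 to 0.10 and Stat5b -0.24 to 0.044. The interaction gave Cux2 -0.67 to 0.64, Socs2 -1.73 to 1.80 and Stat5b -0.17 to 0.16. The median SE was 0.208 for 3 mice against 3 and 0.294 for the interaction. A difference of several times its SE could still go uncalled by edgeR, as did Elovl3 in AEG1_MYC against WT.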
